A study of Arabidopsis thaliana with 4 samples.

Results

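Expansins and xyloglucan endotransglucosylase/hydrolases (XTHs) outside root hairs were examined in Arabidopsis seedlings in which the MYB-like transcription factor KUA1 was switched on. The 57 loci are the expansin and XTH genes listed for these families, without the root hair genes EXPA7, EXPA18, XTH13 and XTH14. Of these, 25 had a probe set of their own on the array (16 of 33 expansin loci and 9 of 24 XTH loci), out of 13286 such genes in all. A further 4, EXPA22, EXPA23, EXPA25 and EXPA26, were matched to probe sets that they share in pairs and were left out, and 28 were matched to no probe set in the tables used here. Each of the 25 genes had 1 probe set.

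Expansins are secreted proteins that loosen the cell wall at acidic pH without cutting its polymers. Alpha-expansins (EXPA) carry out this acid-induced wall loosening, beta-expansins (EXPB) include relatives of the pollen allergens of grasses, and the expansin-like proteins EXLA and EXLB share the fold of expansins. XTHs cut xyloglucan, the main hemicellulose of the primary wall in dicots, and rejoin the cut end to another xyloglucan chain, and some members hydrolyse it instead. Both families have been linked to turgor-driven cell expansion, which is the process that KUA1 affects in leaves.

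RNA came from whole 14-day-old seedlings of KUA1-IOX, a line in the Col-0 background that carries the KUA1 coding sequence in the pER8 vector, whose chimeric activator XVE is made constitutively and needs estradiol to switch on the LexA promoter before KUA1. Seedlings stood for 4 h in liquid medium with 15 µM estradiol or with ethanol alone (mock), and 2 biological replicates per treatment were hybridized, 1 array each. One label field names the mock genotype as control, whereas titles and methods name KUA1-IOX for both groups, which is followed here. No estradiol-treated seedlings without the construct were analysed, so the effects of estradiol and of KUA1 cannot be told apart. With 2 arrays against 2, an exact permutation test of a single gene cannot give a two-sided p under 0.333, and the tests below come from limma fitted to all 22746 probe sets.

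KUA1 itself gave 203 and 170.2 without estradiol, against 1887 and 3373 with it, so the induced gene followed the labels (log2 fold change 3.76, SE 0.29, limma adjusted p = 0.158). The median signal per array lay between 36.2 and 38.9. Of the marker lists, the shoot genes RBCS1A, CAB1 and LHCA1 and the flower and seed genes AP3, AG and CRU3 were matched to no probe set. Nor were the root genes COBL9 and CASP1. The root gene PYK10 had signals of 1994 and 2446 in mock and of 1861 and 1906 after estradiol. Both of its estradiol values lay under both mock values (log2 fold change -0.23). Of 6 photosystem genes chosen after their values were seen, 5 had both estradiol arrays under both mock arrays, as did 19.7% of the probe sets that were not dim, with log2 fold changes from -0.54 to 0.01 over the 6. Their summed signal was 8439 and 9166 in mock and 7709 and 7561 after estradiol. In whole seedlings, fewer cells of a type and less RNA per cell cannot be told apart. A gene is called dim in a treatment where its log2 signal, averaged over both arrays, was below the 40th percentile taken over the probe sets.

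Of the 25 genes, 0 were called higher or lower at a limma adjusted p under 0.05, as were 0% of all probe sets. At an unadjusted limma p under 0.05 there were 0 of the 25 in either direction, against 3.79% of all probe sets lower and 2.73% higher. The paper's criterion was a t-test at an unadjusted P under 0.05 with a 2-fold change. By a t-test on log2 signals at those thresholds, 0 were lower and 0 higher, against 0.528% and 0.629% of all probe sets. The 95% interval of the log2 fold change included 0 for each of the 25. The median log2 fold change was -0.23 for the 16 expansins and -0.20 for the 9 XTH genes, against -0.01 for all probe sets. Without mock replicate 2 the median was 0.068 for the expansins and -0.31 for the XTH genes, and without mock replicate 1 it was -0.38 and -0.48. With 32 added to each signal before log2, the medians were -0.060 and -0.15. The estradiol values were both lower than both mock values for 6 of the 25, EXPB1, EXLA1, EXLA3, EXLB1, XTH21 and XTH26 (18.0% of all probe sets), and both higher for 1, EXPA24 (16.1% of all probe sets).

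**Figure D1:**
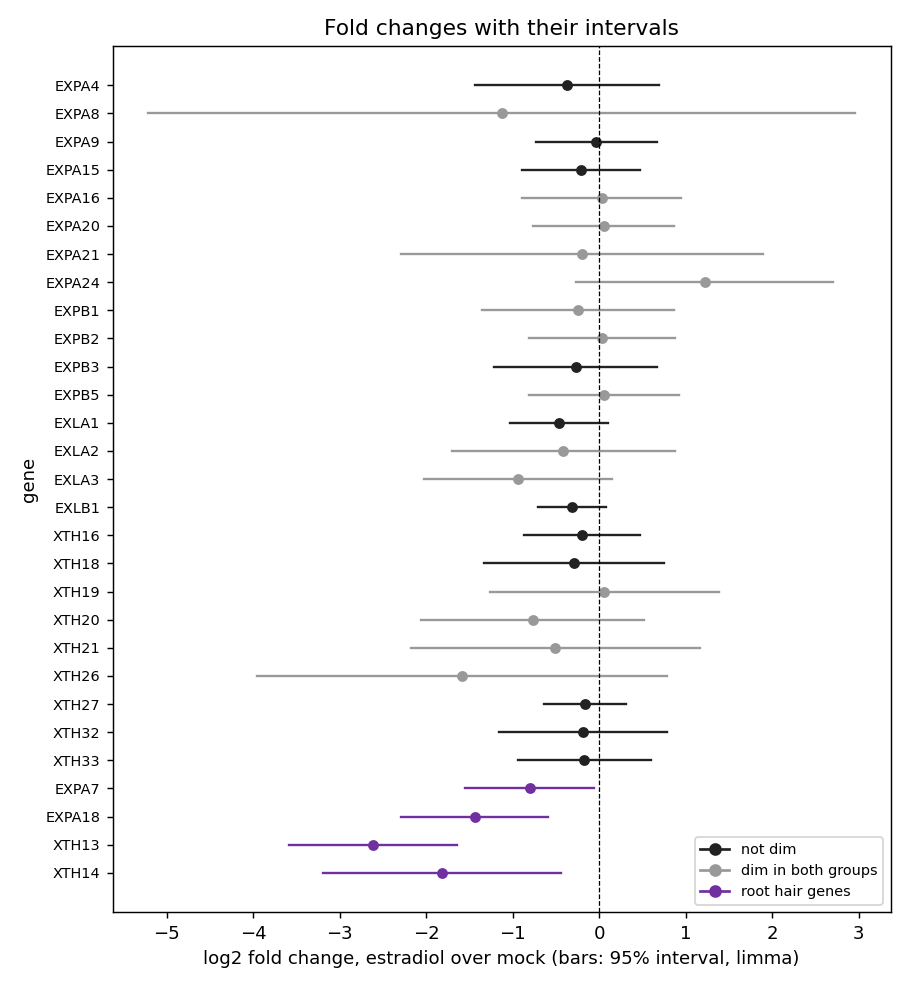
Log2 fold change of estradiol over mock for the 25 expansin and XTH genes and, in purple, the 4 root hair genes left out of the set, with 95% intervals from limma over 4 arrays (black, not dim; grey, dim in both groups). The interval crosses 0 for each of the 25. The 4 root hair genes, 2 of them named through the study's list of changed genes on these arrays, are drawn for their values alone. Of these 4, XTH13 was dim in both groups.

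The signal was not dim for 11 genes, 6 expansins and 5 XTH genes, and was dim in both groups for the other 14. Among the 11, the estradiol values were both lower than both mock values for 2, EXLA1 and EXLB1, and both higher for 0, against 19.7% and 16.9% of the 14060 probe sets that were not dim. All 11 had a log2 fold change below 0, from -0.47 to -0.03, with a median of -0.21. Of the probe sets that were not dim, 51.3% lay below 0, with a median of -0.01. EXPB3 counts among the 11 through its mock signal alone, so its sign is tied to how it was chosen. The 11 values share the same 4 arrays and are not independent of each other. For 10 of the 11, the 2 arrays of 1 treatment differed by more than the mean difference between treatments, as they did for 74.9% of probe sets that were not dim.

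Of the alpha-expansins, EXPA4 (AT2G39700) measured 41.1 and 83.7 in mock and 33.9 and 60.7 with estradiol. The higher estradiol array lay between the mock arrays, and the log2 fold change was -0.37 (SE 0.43, limma adjusted p = 0.971). EXPA9 (AT5G02260) had signals of 39.9 and 65.5 in mock and of 52.5 and 47.7 after estradiol. Both estradiol values fell between the mock values, with a log2 fold change of -0.03 (95% interval -0.73 to 0.67).

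EXPA15 (AT2G03090) stood at 40.01 and 63.6 in mock, against 41.3 and 46.0 with estradiol. Both estradiol values again lay between those of mock (log2 fold change -0.21, SE 0.28). In all 3 alpha-expansins, mock replicate 2 gave the highest signal of the 4 arrays.

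EXPB3 (AT4G28250) was the single beta-expansin that was not dim, and it was so in mock alone. It read 16.9 and 32.4 in mock, against 18.5 and 20.3 with estradiol, with mock replicate 2 above the other 3 arrays. The log2 fold change was -0.27 (95% interval -1.22 to 0.67).

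Among the expansin-like genes, EXLA1 (AT3G45970) had signals of 390.1 and 342 in mock and of 214 and 325 after estradiol. The groups did not overlap, although the higher estradiol value came close to the lower mock value and lay above it after median scaling. Its log2 fold change was -0.47 (SE 0.23, limma adjusted p = 0.842). EXLB1 (AT4G17030), the one measured gene of its class, had signals of 109 and 123 in mock and of 95.04 and 91.5 after estradiol. The groups did not overlap, the replicates of each treatment lay close together, and the log2 fold change was -0.31 (SE 0.16, limma adjusted p = 0.853). EXLB1 was the one gene of the 11 whose difference between treatments exceeded the gap between replicates in both groups.

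**Figure D2:**
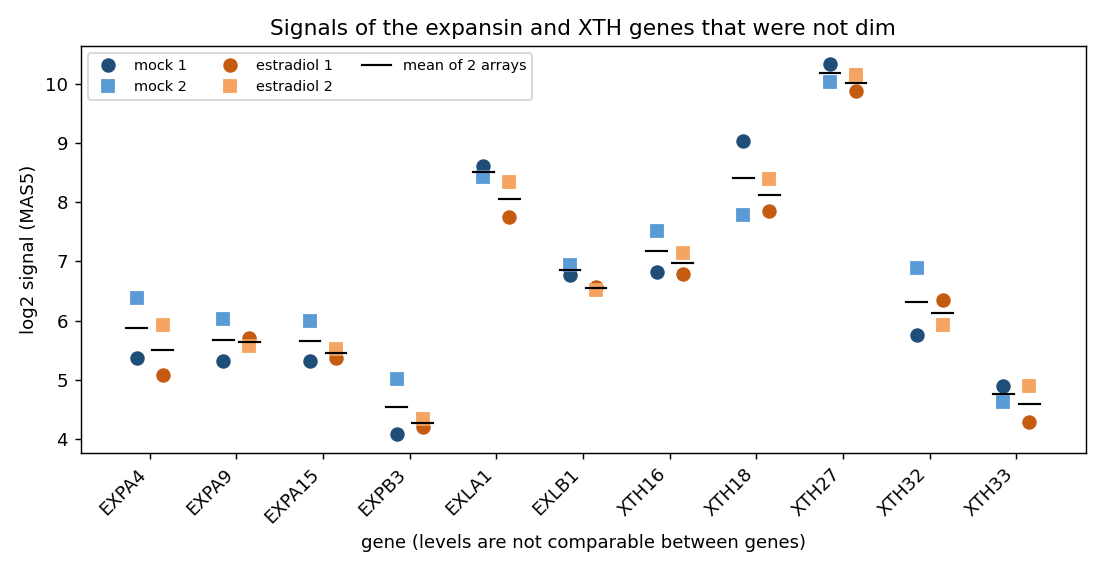
Log2 signal on each of the 4 arrays for the 11 genes that were not dim, with mock in blue and estradiol in orange (circles, replicate 1; squares, replicate 2; bars, mean of 2 arrays). The groups are apart for EXLA1 and EXLB1 and overlap for the other 9 genes. Probe sets differ in how brightly they bind, so heights are not compared between genes.

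XTH27 (AT2G01850, also named EXGT-A3), an enzyme known from the formation of leaf veins, had signals of 1282 and 1041 in mock and of 941 and 1131 after estradiol. The groups overlapped, with a log2 fold change of -0.16. Its 95% interval, from -0.63 to 0.31, was the second narrowest of the XTH and expansin intervals after that of EXLB1 and leaves room for a change of at most 1.55-fold.

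XTH18 (AT4G30280), one of a group of XTHs with expression in roots, had signals of 525 and 221 in mock and of 232 and 336 after estradiol. Both estradiol values lay between the mock values, which differed by 1.25 on the log2 scale (mock replicate 2 lower), and the log2 fold change was -0.29 (SE 0.42). XTH16 (AT3G23730) had signals of 113 and 183 in mock and of 111 and 142 after estradiol. Its groups overlapped, with a log2 fold change of -0.20 (SE 0.27).

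The signals of XTH32 (AT2G36870), which belongs to the subgroup with predicted hydrolase activity, were 53.8 and 118 in mock, against 81.2 and 60.7 with estradiol. Both estradiol values lay between the mock values (log2 fold change -0.19, 95% interval -1.15 to 0.78). XTH33 (AT1G10550), which carries a predicted membrane anchor, had signals of 29.8 and 24.7 in mock and of 19.5 and 29.8 after estradiol. The groups overlapped here as well (log2 fold change -0.17, SE 0.31).

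The size of change that these arrays leave possible differed from gene to gene. For 6 of the 11 genes, EXPA9, EXPA15, EXLB1, XTH16, XTH27 and XTH33, the 95% interval lay within 2-fold in both directions. For the other 5 a 2-fold decrease was still inside the interval, which reached 2.71-fold for EXPA4 and 2.52-fold for XTH18. The median SE was 0.28 for the 11 genes and 0.21 for all probe sets that were not dim. Of those 14060 probe sets, 11252 had an interval within 2-fold in both directions.

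The direction of these small differences depended on 1 array for several genes, most often on mock replicate 2. Relative to the mean of its 4 arrays, EXPA4 stood 0.70 log2 units higher on mock replicate 2, XTH32 0.66, EXPB3 0.60, XTH16 0.45, EXPA15 0.44 and EXPA9 0.37. On mock replicate 1 the same 6 genes lay 0.23 to 0.48 below their mean. XTH18, XTH27, XTH33 and EXLA1 had their highest signal on mock replicate 1, where XTH18 stood 0.77 above its mean. The absolute difference between the mock arrays had a median of 0.70 over the 11 genes, against 0.23 over all probe sets that were not dim, and between the estradiol arrays it was 0.36 against 0.22. The mock arrays differed by 2-fold or more for 3 of the 11 genes, EXPA4, XTH18 and XTH32, and the estradiol arrays for 0. Of the 14060 probe sets that were not dim, 453 differed that much in mock and 422 after estradiol.

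**Figure D3:**
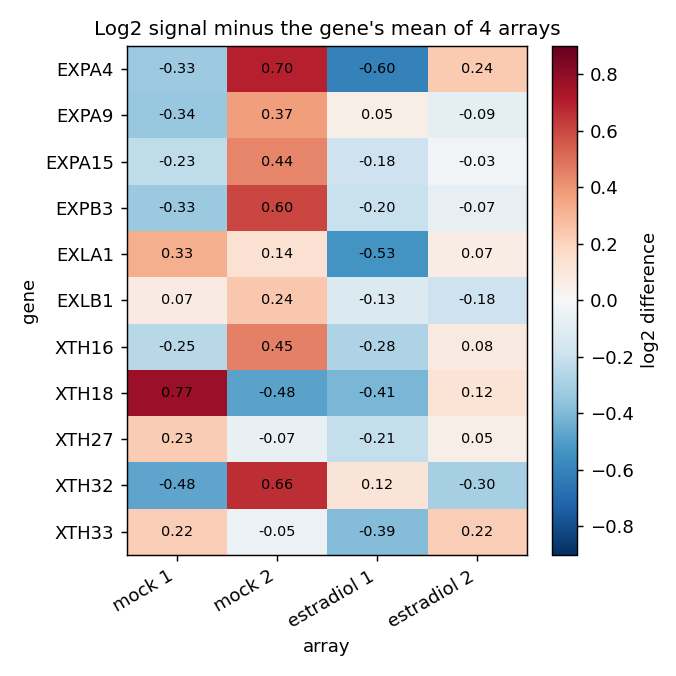
Log2 signal of the 11 genes on each array, as the difference from the gene's mean over the 4 arrays (red, higher; blue, lower). Mock replicate 2 is the highest array for EXPA4, EXPA9, EXPA15, EXPB3, EXLB1, XTH16 and XTH32, and mock replicate 1 for EXLA1, XTH18, XTH27 and XTH33.

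Without mock replicate 2, 6 of the 11 log2 fold changes lay above 0 and their median was 0.12. The 6 were EXPA4 at 0.14, EXPA9 at 0.33, EXPA15 at 0.12, EXPB3 at 0.19, XTH16 at 0.15 and XTH32 at 0.38. Without mock replicate 1, XTH18 went to 0.33 and the other 10 stayed below 0, with a median of -0.40. Without estradiol replicate 1 or 2, 2 of the 11 lay above 0 each time, with medians of -0.10 and -0.34. They were EXPA4 at 0.05 and XTH33 at 0.13 without replicate 1, and EXPA9 at 0.04 and XTH32 at 0.02 without replicate 2. EXLA1, EXLB1 and XTH27 were below 0 whichever array was left out, EXLA1 between -0.77 and -0.17, EXLB1 between -0.40 and -0.23 and XTH27 between -0.31 and -0.01. The summed signal of the 4 root hair genes, 128 on mock replicate 1 and 244 on mock replicate 2, was also higher on mock replicate 2, and PYK10 stood at 1994 and 2446. The summed signal of the 6 photosystem genes was higher there too, at 8439 and 9166. XTH18, from a group with expression in roots, was lower there, at 525 and 221, and the root-expressed XTH26, which was dim, was higher, at 1.29 and 8.18. The part of a differing tissue makeup in these values was not tested.

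**Figure D4:**
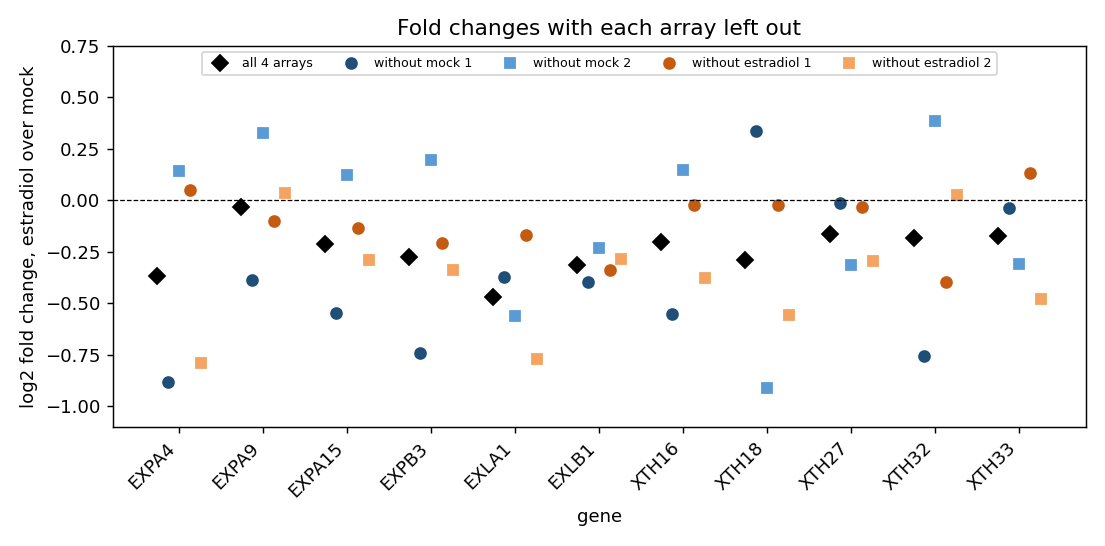
Log2 fold change of the 11 genes from all 4 arrays (diamonds) and with each array left out in turn (circles, replicate 1; squares, replicate 2; blue, a mock array left out; orange, an estradiol array left out). All 11 diamonds lie below 0, and 6 of the values without mock replicate 2 lie above it. EXPB3 is among the 11 through its mock signal alone.

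The 14 genes that were dim in both groups had signals between 0.50 and 49.1 and log2 fold changes from -1.59 to 1.22. They are 5 alpha-expansins (EXPA8, EXPA16, EXPA20, EXPA21 and EXPA24), the beta-expansins EXPB1, EXPB2 and EXPB5, the expansin-like genes EXLA2 and EXLA3, and XTH19, XTH20, XTH21 and XTH26. With signals raised to the 40th percentile of each array, 11 of the 14 were at that floor on every array and gave no value. The other 3 were EXPA8, EXPB2 and XTH19, with 1 array each above the floor.

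The 3 dim genes with the smallest limma p were EXLA3, EXPA24 and XTH26. EXLA3 (AT3G45960) had signals of 7.68 and 7.85 in mock, and of 3.46 and 4.77 with estradiol, a log2 fold change of -0.94 (SE 0.44, limma adjusted p = 0.832). EXPA24 (AT5G39310) had 1.25 and 0.82 in mock, against 2.31 and 2.42 with estradiol, and was the 1 gene of the 25 that was higher on both estradiol arrays (log2 fold change 1.22, SE 0.60, limma adjusted p = 0.843). XTH26 (AT4G28850), an enzyme expressed in roots, had 1.29 and 8.18 in mock, against 1.06 and 1.10 with estradiol. Its log2 fold change was -1.59 (95% interval -3.96 to 0.78), and mock replicate 2 stood far above the other 3 arrays. With 32 added to each signal, these log2 fold changes were -0.14 for EXLA3, 0.057 for EXPA24 and -0.14 for XTH26.

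EXPA8, singled out after its values were seen, had the largest gap between replicates among the 25 genes. Its signal was 1.68 on mock replicate 1 and 49.1 on mock replicate 2, and 9.62 and 1.79 after estradiol, so the log2 fold change of -1.13 had a 95% interval from -5.22 to 2.96.

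Several of these genes lie next to each other in the genome, by the RefSeq gene order of TAIR10.1. EXLA3 and EXLA1 are direct neighbours, and in both the estradiol arrays lay under the mock arrays, with EXLA3 dim throughout. For EXLA1 this did not hold after median scaling. XTH18 and XTH19 are direct neighbours too. XTH18 was highest on mock replicate 1, at 525, whereas XTH19, which was dim, was highest on estradiol replicate 1, at 30.7 against 21.3, 14.8 and 11.2 on mock replicate 1, mock replicate 2 and estradiol replicate 2. EXPA21 and EXPA24 flank the 4 alpha-expansins that share probe sets, and both were dim.

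The 4 root hair genes are given as values alone, since XTH13 and XTH14 were named through the study's list of genes that changed on these same arrays. Their log2 fold changes were -0.80 for EXPA7, -1.44 for EXPA18, -2.62 for XTH13 and -1.82 for XTH14. XTH13 was dim in both groups, and EXPA18 and XTH14 were dim after estradiol. With signals raised to the 40th percentile of each array, the log2 fold changes were -0.80, -0.71, -0.09 and -1.50 in the same order. The summed signal of the 4 genes was 74.7 and 53.8 on the estradiol arrays. XTH13 and XTH14 are neighbours of genes of the set, XTH25 and XTH23, that were matched to no probe set here. A difference between the root hair genes and the 25 was not tested. XTH29, a family member outside the listed loci, was dim with a log2 fold change of -0.01.

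Of 11 genes of xyloglucan synthesis, 5 were measured, all of them CSLC genes, whose products make the glucan backbone of xyloglucan. With limma, 0 of the 5 were called, 1 (CSLC12, dim) had both estradiol arrays under both mock arrays and 0 above (0% of all probe sets were called, 18.0% lower and 16.1% higher in this way), and their median log2 fold change was -0.18. By limma p the first 3 were CSLC6, with signals of 75.9 and 57.4 in mock and of 54.2 and 62.4 after estradiol, CSLC12 at a log2 fold change of -0.20, and CSLC8 at -0.19. CSLC4, a main synthase of the backbone, had signals of 158 and 204 in mock and of 193 and 151 after estradiol. The listed genes for trimming of xyloglucan, for plasma membrane proton pumps, for primary wall cellulose and for the touch response were matched to no probe set.

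The GH9 family of endoglucanases, which act on glucans of the wall, was chosen after the data were seen. Of its 15 measured genes, 0 were called by limma, 4 had both estradiol arrays under both mock arrays and 1 above, and 10 were dim, where 0%, 18.0% and 16.1% of all probe sets were called, lower and higher in this way. The median log2 fold change was -0.15. GH9C1, which is on the study's list of genes that changed on these arrays and is given as values alone, had signals of 25.4 and 36.2 in mock and of 12.9 and 16.7 after estradiol, a log2 fold change of -1.05. GH9C3 stood at -1.43 and was dim in both groups, and GH9B5, also dim, stood at -1.39 with overlapping groups.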

How the data were processed

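Per the labels and methods, RNA of 2 mock and 2 estradiol samples was hybridized to the Affymetrix ATH1 GeneChip. The deposited intensities are MAS5 signals on a linear scale, which the authors scaled per array, since each array has a mean of 100.0 once its lowest and highest 2% are trimmed. No MAS5 version or detection calls were found in the labels or methods, and the number of arrays limits the precision. All signals were above 0.

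After 64 control probe sets were left out, log2 signals of 22746 probe sets were compared with limma 3.58.1 in R 4.3.3 (lmFit, eBayes with an intensity trend, no block), with Benjamini-Hochberg adjustment over all of them. The fit was also run on simulated data as a check of the code, which does not show how small a change these arrays can detect. Replicates are biological per the methods, and the p-values rest on the spread of these 4 arrays alone.

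Of the probe sets, 13513 have 1 gene in the platform table, 503 have several and 8730 are not listed there, so other family members may be on the array unnamed. XTH13 and XTH14 were named from Supplementary Data 1. The genes described are those not dim, the 3 dim ones with the smallest limma p, and up to 3 per further list by limma p; CSLC4, EXPA8, XTH29 and the GH9 and photosystem genes were picked after their values were seen. Members and lists were chosen with earlier results of these arrays known. The fit was repeated without the intensity trend, with a replicate block, without dim probe sets and with each array left out. It was also repeated after quantile or median scaling and with an offset of 32 added to the signal. A further run had signals raised to the 40th percentile of their array. What is called the methods' t-test is a t-test run here on log2 signals at the thresholds of the methods. The authors' fold changes in Supplementary Data 1 were not used.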

Additional observations from a re-analysis of the deposited data

How the results depend on the processing

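With 2 arrays per treatment, signals near background and the gap between replicates limit what can be seen. Of the 25 expansin and XTH genes, 0 were called under each alternative with a test, namely 2 scalings, the offset, the floor, dim probe sets left out, no intensity trend, the replicate block, each array left out and both forms of the methods' t-test. Over all probe sets, limma called 0 under each of its planned settings, and the methods' t-test with 2-fold gave 263 and, after adjustment, 0. Neither labels nor methods say that the replicate numbers pair the samples. The log2 differences between replicates 1 and 2 correlated at -0.13 between the treatments over all probe sets and at -0.30 over those not dim, the replicate block called 0 probe sets, and a block with the numbers crossed, chosen after seeing the data, called 3 and 0 of the 25 genes.

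The counts of genes with both estradiol arrays under or above both mock arrays, 6 and 1, were 4 and 1 after median scaling. EXPB1 and EXLA1 overlapped there. With the floor and with dim probe sets left out, counts were 2 and 0, since fewer genes then have a value or a difference. With an array left out, where 2 arrays are compared with 1, they ran from 8 to 15 and from 3 to 8, which is 32% to 60% and 12% to 32% of the 25 genes. Over all probe sets the shares were then 32.2% to 36.3% lower and 30.6% to 33.8% higher. The median log2 fold change of the expansins ran from -0.38 to 0.068 over the arrays left out, lying at 0.068 without mock replicate 2, and that of the XTH genes from -0.48 to -0.31. The median of the CSLC genes ran from -0.26 to 0.094, the last without mock replicate 2.

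Of 148 alternative values of the 14 named genes, 137 kept their sign and 11 did not, all of them with an array left out. Over the arrays left out, EXPA4 ran from -0.88 to 0.14 and EXPA9 from -0.39 to 0.33. EXPA15 ran from -0.55 to 0.12 and EXPB3 from -0.74 to 0.19. XTH16 ran from -0.55 to 0.15, XTH18 from -0.91 to 0.33, XTH32 from -0.75 to 0.38 and XTH33 from -0.48 to 0.13. The cause was not tested. EXLA3, EXPA24 and XTH26 have no value with the floor or with dim probe sets left out and came closest to 0 with the offset, and the mean over several probe sets was not run because each gene had 1.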
